A study of Mus musculus with 8 samples.

Results

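The genes described here copy the chromosomes and supply the nucleotides for it in RAW264.7 cells, a mouse macrophage-like line derived from a tumour induced by Abelson leukaemia virus. They were taken by name as 48 symbols, and all 48 had a row among the 10639 genes of the table. The list itself sets no threshold on a measured value. All 48 passed the filter on low values, which kept the 10289 genes with an FPKM (fragments per kilobase of exon, scaled to library size) of 1 or more in 2 or more libraries.

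The study had 8 libraries in 4 groups of 2, all from cells whose genotype is labelled WT. One group was untreated. The second was given LPS, a bacterial cell wall component that macrophages sense through Toll-like receptor 4, at 50 ng/mL for 12 h. Anti-CD36 antibodies, whose target is a receptor that takes up oxidised lipoproteins and fatty acids, were given to the third at a dilution of 1 in 100 for 12 h. The last received LPS with anti-CD36 for 12 h, and its labels give no doses. No group received an antibody of another specificity, all cells are of a single transformed line, and separate cultures are not stated for the 2 libraries of a group, so the error behind every p-value may be technical alone.

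DNA replication starts at origins, which the origin recognition complex, Cdc6 and Cdt1 mark in G1 phase by loading the Mcm2 to Mcm7 helicase. In S phase, Cdc45 and the GINS complex switch that helicase on, and polymerases, a sliding clamp, nucleases and a ligase follow it along both strands. Many of these genes are transcribed at the G1/S boundary by E2F factors, with cyclin E acting on the same switch, and macrophages stimulated with LPS are known to divide less. In bulk RNA, fewer cells in S phase and less RNA of these genes per cell cannot be told apart.

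Promoter sequences are shown because E2F factors are known regulators of these genes, and the members moved together. RefSeq windows (GRCm38.p6, 250 bases before to 50 after a start site) matched 39 of the 48 genes. The E2F words TTTCCCGC, TTTCGCGC, TTTGGCGC and TTTGCCGC were searched on both strands. A match was found for 15 of the 39 members (38.5%), against 5.24% of the 8071 tested genes with a window and 2.6% of all 27025 genes in the promoter table. The median GC content of the windows was 60.7% for the members and 61% for tested genes. The NF-Y word CCAAT, searched on both strands too, was in 61.5% of the members and 43.2% of tested genes, and TTTGAA, the cell cycle homology word, in 15.4% and 14.4%. A single E2F match among the members overlapped 1 of these other words. Of the members called lower with LPS (below), 13 of 35 with a window had an E2F match. That is 37.1%, close to the 38.5% of all members with a window. Among all tested genes called lower it was 6.69% of 3125 with a window. Orc1 and Pola1, which were not called, had a match too. These are matches of letters and not evidence of binding. The 170 bases before the start site are printed 5′ to 3′ for the 4 members that fell most with LPS among those with a single listed start and a match in that stretch, and for Orc1, which had a match and was not called. Capitals mark the E2F words.
Cdc6: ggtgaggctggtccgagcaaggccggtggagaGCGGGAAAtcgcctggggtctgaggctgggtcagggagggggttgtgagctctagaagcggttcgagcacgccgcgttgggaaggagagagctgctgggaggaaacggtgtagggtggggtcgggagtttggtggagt
Mcm5: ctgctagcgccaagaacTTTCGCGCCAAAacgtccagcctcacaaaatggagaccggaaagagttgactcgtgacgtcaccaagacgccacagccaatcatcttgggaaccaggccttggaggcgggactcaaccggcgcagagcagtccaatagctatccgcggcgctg
Mcm6: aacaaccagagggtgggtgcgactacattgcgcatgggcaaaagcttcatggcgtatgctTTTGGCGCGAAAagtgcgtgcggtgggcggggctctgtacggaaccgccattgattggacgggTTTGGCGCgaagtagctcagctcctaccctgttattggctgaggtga
Gins3: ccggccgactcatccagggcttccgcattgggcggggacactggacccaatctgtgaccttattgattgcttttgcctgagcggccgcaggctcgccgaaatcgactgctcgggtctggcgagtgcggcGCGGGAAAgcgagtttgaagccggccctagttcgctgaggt
Orc1: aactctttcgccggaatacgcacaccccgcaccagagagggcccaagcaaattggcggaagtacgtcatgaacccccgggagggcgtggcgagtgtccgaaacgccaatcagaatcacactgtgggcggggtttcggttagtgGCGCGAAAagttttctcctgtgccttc
The stretches lie at chr11:98907981-98908150 (plus strand) for Cdc6, chr8:75109339-75109508 (plus strand) for Mcm5, chr1:128359706-128359875 (minus strand) for Mcm6, chr8:95633389-95633558 (plus strand) for Gins3 and chr4:108579284-108579453 (plus strand) for Orc1. Mcm5 holds 2 overlapping words, and Mcm6 holds 3, the first 2 of them overlapping. The single word of Cdc6 spans positions -138 to -131 before the start, that of Gins3 -41 to -34, and that of Orc1 -27 to -20.

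The depth of each library was read from the FPKM steps that single reads make in short genes, at 47900000 to 71700000 reads. From these depths and the exon lengths of GENCODE M21, the members stood on about 252 reads (Fen1) to 33295 reads (Rrm1) per library. Levels on few reads carry more counting error. The largest SE of an LPS difference was not at the lowest count, though: 0.36 for Tk1 (at least 4133 reads), against 0.24 for Fen1. The mitochondrial share of all FPKM was 15.7% in replicate 1 of anti-CD36 and 3.28% to 6.62% elsewhere. Of 10 macrophage markers, 9 were in the table, with a summed FPKM of 3630 to 5410. Of 8 markers of fibroblasts, epithelium and endothelium 0 were in the table. The T and NK cell list had 1 of 6 (Lck, 1.72 to 2.00 without LPS and 4.15 to 4.32 with it) and the dendritic cell list 2 of 6 (summed FPKM 0.402 to 0.476 and 2.12 to 3.69). The granulocyte list had 1 of 6 (2.97 to 4.92) and the B cell list 2 of 6 (68 to 110, nearly all of it Ighm). Among the macrophage markers LPS raised 4 of 9 and lowered 2, with Adgre1 at 2.59, Cd14 at 1.61 and Csf1r at -1.57, and the sum is mostly Lyz2 and Cd14. The part of these lists in the results was not tested. With mitochondrial genes left out and the libraries rescaled, 46 members were called lower with LPS, where 48.1% of all genes were. The median was -1.26, against -0.38 over all genes. With anti-CD36 2 members were called higher and 2 lower, where 1.34% and 12.7% of all genes were.

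**Figure D1:**
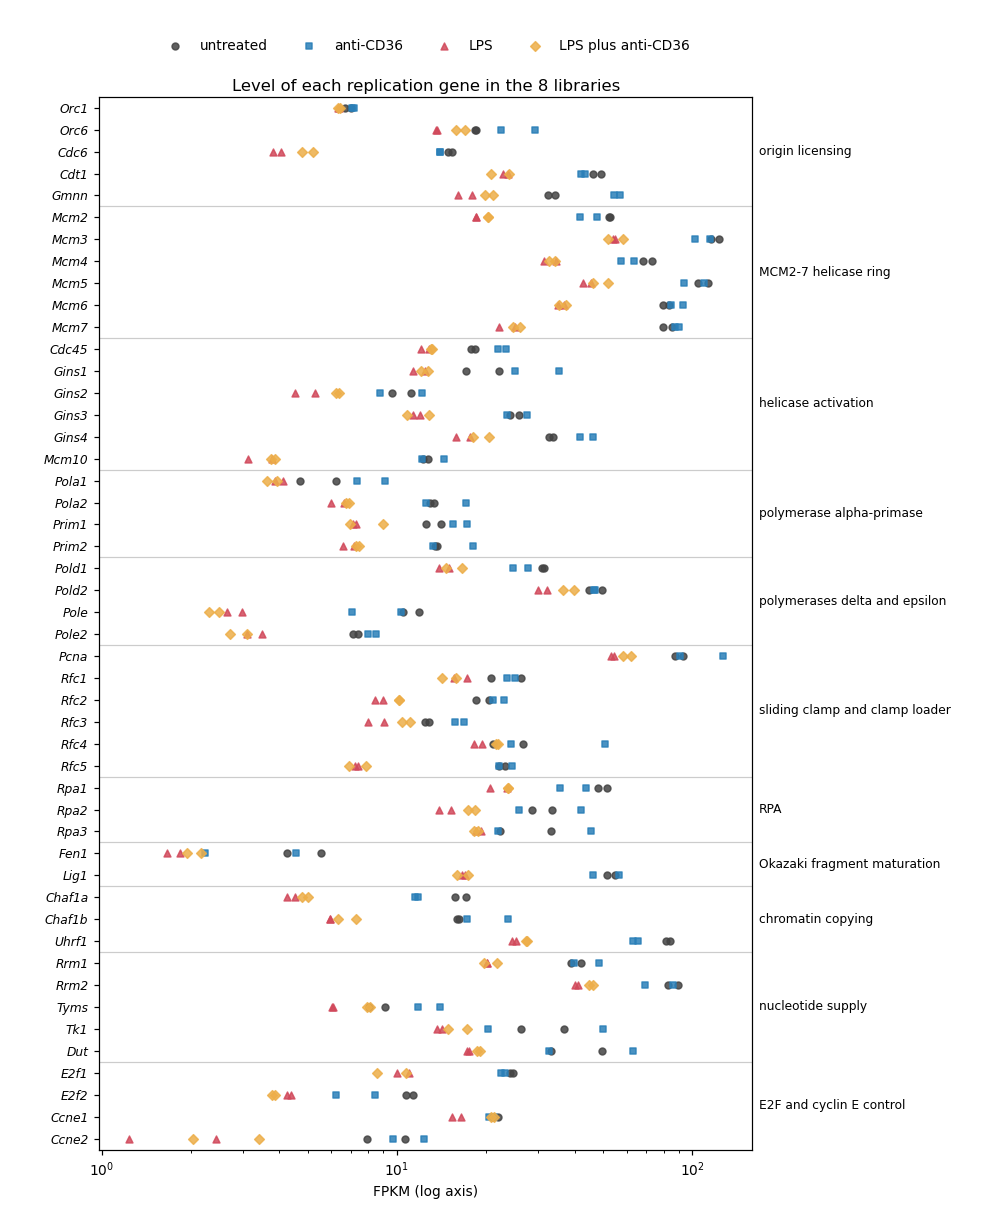
FPKM (log axis) of the 48 genes in each of the 8 libraries, with 2 points per group and genes ordered by role. The LPS points lie left of the untreated points in all 48 rows, while the anti-CD36 points lie on either side of them.

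The replication genes were lower with LPS, from licensing factors to chromatin assembly, and nearly all passed the test. Both LPS libraries lay below both untreated libraries in 48 of 48 members, which 54.5% of all tested genes also did. In limma on log2(FPKM + 1) with Benjamini-Hochberg adjustment over all tested genes, 44 of 48 were called lower and 0 higher at an adjusted p under 0.05, where 37.5% of all tested genes were called lower and 17% higher. An unadjusted p under 0.05 was reached by 45 of them and by 60.9% of all genes. The median difference was -1.05 on the log2 scale over the members and -0.19 over all genes. A fall of at least 1 was found in 26 of the 48, against 10.7% of all genes. Their summed FPKM was 1688 and 1606 in the untreated libraries and 755 and 774 with LPS, or 0.575% and 0.573% of all FPKM before and 0.227% and 0.239% after. With median-ratio size factors, which move the median of all genes from -0.19 to 0.01, 37 members were called lower (26.4% of all genes) and their median was -0.82. Over all genes that scaling moved the share of rises among calls from 31.2% to 49.6%, and no member was called higher under either.

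**Figure D2:**
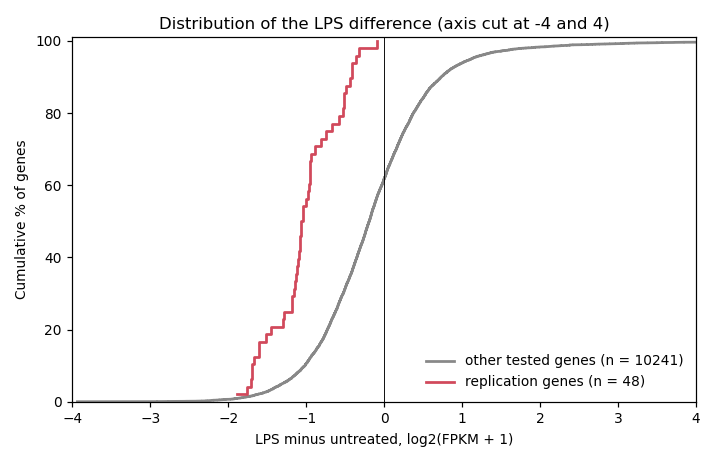
Cumulative percentage of genes (y axis) by LPS minus untreated difference in log2(FPKM + 1) (x axis), for the 48 replication genes and the other tested genes, with the axis cut at -4 and 4. The curve of the replication genes lies wholly below a difference of 0, from -1.88 to -0.09, with its median at -1.05.

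Among the licensing genes, Cdc6 and Cdt1, which load the helicase, fell furthest. Cdc6 was at 14.8 and 15.4 FPKM untreated, 3.81 and 4.05 with LPS, 14.0 and 14.0 with anti-CD36 and 4.78 and 5.18 with both. It was 3.84-fold lower with LPS (log2 difference -1.71 ± 0.10 SE, limma adjusted p = 1.6e-05). Cdt1 stood at 49.1 and 46.1 untreated, 22.8 and 23.8 with LPS, 41.9 and 43.3 with anti-CD36 and 23.9 and 20.9 with both, a fall of 1.00 ± 0.11 with LPS (limma adjusted p = 0.00028). For both genes the LPS and combination libraries form a low pair of groups that does not overlap the others. Gmnn, geminin, which inhibits Cdt1, changed by -0.94, and Orc6 of the origin recognition complex by -0.41 (limma adjusted p = 0.034). Orc1, the complex's ATPase, was the exception among the licensing genes. Its level was 6.98 and 6.65 untreated, 6.37 and 6.32 with LPS, 7.18 and 7.04 with anti-CD36, and 6.33 and 6.41 with both, a difference of -0.09 that was not called (limma adjusted p = 0.44) and turned to 0.12 with size factors. The FPKM ratio of Orc1 to Cdc6 within a library was accordingly 0.47 and 0.433 untreated and 1.67 and 1.56 with LPS.

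All 6 subunits of the helicase ring fell, with differences from -1.08 (Mcm4) to -1.77 (Mcm7). Mcm3 had the highest mean level of the 48 genes, at 123 and 116 FPKM untreated, 53.9 and 54.8 with LPS, 115 and 102 with anti-CD36, and 58.4 and 51.9 with both. Mcm7 fell 3.50-fold, from 85.6 and 79.9 to 22.2 and 25.2 (-1.77 ± 0.11, limma adjusted p = 2.5e-05), and was at 87.3 and 90.2 with anti-CD36 and 26.1 and 24.8 with both. Mcm2 went from 52.3 and 52.8 to 18.5 and 18.6 (-1.46 ± 0.11, limma adjusted p = 4.4e-05), and stood at 47.5 and 41.8 with anti-CD36 and 20.4 and 20.4 with both. The subunits, which act in equal numbers in the ring, did not keep a fixed ratio of RNA. Mcm7 divided by the mean of Mcm2 to Mcm6 was 0.982 and 0.931 untreated, 0.611 and 0.662 with LPS, 1.06 and 1.14 with anti-CD36, and 0.656 and 0.652 with both. The ratios of this kind were chosen after the values were seen and are given as a description, with no test. Of the ring genes with a promoter window, Mcm3, Mcm5 and Mcm7 held 2 of the E2F words each and Mcm6 held 3, with differences of -1.12, -1.28, -1.77 and -1.16, while Mcm2 (-1.46) held 0.

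The 6 genes that switch the helicase on were all called lower. Mcm10, an initiation factor, fell most, from 12.2 and 12.7 FPKM to 3.12 and 3.79 (-1.60 ± 0.12, limma adjusted p = 5.5e-05), with 14.4 and 12.1 under anti-CD36 and 3.86 and 3.75 under both. Gins3 went from 25.9 and 24.1 to 12.0 and 11.3 (-1.04 ± 0.13, limma adjusted p = 0.00044), with 23.6 and 27.7 under anti-CD36 and 10.8 and 12.8 under both. The other GINS subunits changed by -0.67 (Gins1), -0.95 (Gins2) and -0.95 (Gins4). Cdc45, their partner in the active helicase, had the smallest fall of the 6 at -0.51 (limma adjusted p = 0.0036).

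The primer-making polymerase alpha complex fell in 3 of its 4 subunits. Its accessory subunit Pola2 was at 13.4 and 13.0 FPKM untreated, 5.98 and 6.62 with LPS, 17.2 and 12.6 with anti-CD36, and 6.72 and 6.91 with both (-0.96 ± 0.15 with LPS, limma adjusted p = 0.0013). Prim2, the large primase subunit, had 13.5 and 13.7 untreated, 7.17 and 6.59 with LPS, 18.1 and 13.3 with anti-CD36, and 7.45 and 7.29 with both (-0.89). In both genes the 2 anti-CD36 libraries lie further apart than those of any other group. Prim1, the catalytic primase subunit, changed by -0.80. Pola1, the catalytic polymerase, was at 4.72 and 6.24 untreated and 3.87 and 4.12 with LPS, which was not called (-0.37 ± 0.15, limma adjusted p = 0.071). It was at 7.32 and 9.13 with anti-CD36 and 3.64 and 3.94 with both, and that difference was called (-0.94 ± 0.15, limma adjusted p = 0.0018).

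The 4 listed subunits of the main replicative polymerases fell. Pole, the catalytic subunit of leading-strand polymerase epsilon, was at 10.5 and 11.9 FPKM untreated, 2.66 and 2.98 with LPS, 10.3 and 7.05 with anti-CD36, and 2.50 and 2.31 with both. It was 3.97-fold lower with LPS (-1.67 ± 0.17, limma adjusted p = 0.00017). Pold1, its counterpart in lagging-strand polymerase delta, was at 31.5 and 31.1 untreated, 13.9 and 15.0 with LPS, 24.7 and 27.8 with anti-CD36, and 16.6 and 14.7 with both (-1.07 ± 0.11, limma adjusted p = 0.00024). Within each library Pole divided by Pold1 was 0.334 and 0.381 untreated, 0.192 and 0.198 with LPS, 0.417 and 0.253 with anti-CD36, and 0.151 and 0.157 with both. The accessory subunits Pole2 and Pold2 changed by -0.95 and -0.58. Among the subunits outside the 48 genes, Pole3 (-0.99) and Pold3 (-0.64) fell, while Pold4 (0.53, limma adjusted p = 0.12) and Pole4 (0.41, limma adjusted p = 0.23) were not called.

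Of the sliding clamp and its loader, 5 of 6 genes fell, and over a wide range. Rfc5 was at 23.2 and 22.1 FPKM untreated, 7.20 and 7.37 with LPS, 22.1 and 24.5 with anti-CD36, and 7.87 and 6.89 with both (-1.51 ± 0.11 with LPS, limma adjusted p = 4.2e-05). Rfc2 was at 20.5 and 18.6, 8.95 and 8.41, 21.2 and 23.0, and 10.1 and 10.2 in the same order (-1.08 ± 0.10, limma adjusted p = 0.00015). Within 1 loader complex, then, these subunits fell by over 1 while Rfc1 and Rfc3 changed by -0.48 and -0.52. Pcna, the clamp itself, changed by -0.74, from 92.9 and 87.6 to 53.0 and 54.4. Rfc4 was not called, at 26.8 and 21.1 untreated and 19.5 and 18.3 with LPS (-0.32 ± 0.30, limma adjusted p = 0.39), and its anti-CD36 libraries read 24.3 and 50.6.

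RPA coats the exposed single strand. Rpa1 was at 51.6 and 47.9 FPKM untreated, 20.7 and 23.6 with LPS, 35.6 and 43.9 with anti-CD36, and 23.7 and 23.7 with both (-1.13 ± 0.13, limma adjusted p = 0.00036). Rpa2 was at 33.5 and 28.7, 13.8 and 15.3, 25.9 and 41.9, and 18.4 and 17.4 in the same order (-1.04, limma adjusted p = 0.0043). Rpa3, the shortest of the 48 genes at 1136 exonic bases, was not called (-0.51 ± 0.31, limma adjusted p = 0.21). Its untreated replicates read 33.1 and 22.3, its LPS replicates 19.2 and 18.5, and its anti-CD36 replicates 21.9 and 45.5. The SE is estimated over all 8 libraries, so the spread of the anti-CD36 replicates enters it too. With only the untreated and LPS libraries fitted, 3 of the 4 members not called with LPS were called lower, where 44.9% of all genes were.

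Both enzymes that finish Okazaki fragments fell. Lig1, the ligase, was at 51.4 and 54.6 FPKM untreated, 16.6 and 17.0 with LPS, 56.5 and 46.2 with anti-CD36, and 17.4 and 16.0 with both (-1.60 ± 0.13, limma adjusted p = 6.2e-05). Fen1, the flap nuclease, had the lowest mean of the 48, at 5.54 and 4.25 untreated, 1.84 and 1.66 with LPS, 2.23 and 4.54 with anti-CD36, and 2.17 and 1.95 with both (-1.09 ± 0.24, limma adjusted p = 0.0063). The genes that restore chromatin behind the fork were among those with the largest falls. Chaf1a, the large subunit of the histone chaperone CAF-1, was at 17.2 and 15.7 untreated, 4.24 and 4.52 with LPS, 11.8 and 11.6 with anti-CD36, and 5.01 and 4.78 with both (-1.70 ± 0.10 with LPS, limma adjusted p = 1.8e-05). Uhrf1, which brings the maintenance methyltransferase to new DNA, was at 81.6 and 84.0, 25.4 and 24.6, 65.7 and 63.0, and 27.5 and 27.4 in the same order (-1.69 ± 0.10, limma adjusted p = 1.8e-05). In these 2 genes the anti-CD36 libraries lie between the untreated and the LPS libraries, with no overlap. Chaf1b changed by -1.30. Exons of other genes overlap 78.8% of the exonic bases of Fen1 (Gm10143), 67.3% of Gins2 (Gse1), 52.5% of Chaf1a (Ubxn6), 17.4% of Ccne2 (Ints8) and 15.1% of Rfc2 (Lat2), all on the opposite strand. Whether the counting used strand was not given in the sources used here, so these levels may include reads of the partner.

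All 5 nucleotide supply genes were called lower, though 2 of them varied widely between replicates. Dut, which removes dUTP, was at 49.5 and 33.4 FPKM untreated, 17.5 and 17.2 with LPS, 32.8 and 63.1 with anti-CD36, and 19.1 and 18.8 with both (-1.18 ± 0.29, limma adjusted p = 0.011). Tk1, the thymidine salvage kinase, was at 36.7 and 26.2, 13.7 and 14.2, 20.3 and 49.7, and 17.3 and 14.9 in the same order (-1.10 ± 0.36, limma adjusted p = 0.034), and lost its call with size factors (limma adjusted p = 0.062). The LPS replicates of both genes agree closely, whereas the untreated and above all the anti-CD36 replicates do not. Ribonucleotide reductase, which makes deoxynucleotides, had falls of 0.97 in Rrm1 and 1.06 in Rrm2. Tyms, which makes thymidylate, had the smallest fall of the 5, from 9.09 and 8.07 to 6.05 and 6.07 (-0.44 ± 0.12, limma adjusted p = 0.015), and lost its call with size factors (limma adjusted p = 0.11).

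Both E2F genes and both E cyclins fell, by unequal amounts. Ccne2 had the largest log2 difference of the 48 genes, from 7.93 and 10.7 FPKM to 1.24 and 2.43 with LPS (-1.88 ± 0.26, limma adjusted p = 0.00083), and was at 9.69 and 12.3 with anti-CD36 and 2.04 and 3.42 with both. E2f2 was at 11.4 and 10.8 untreated, 4.25 and 4.38 with LPS, 6.22 and 8.42 with anti-CD36, and 3.78 and 3.87 with both (-1.18 ± 0.14, limma adjusted p = 0.00034). E2f1 changed by -1.14, from 24.1 and 24.7 to 10.0 and 11.0. Ccne1, the other E cyclin, was at 22.0 and 21.1 untreated, 15.4 and 16.5 with LPS, 20.4 and 21.3 with anti-CD36, and 20.9 and 21.3 with both. Its fall with LPS was called (-0.41 ± 0.10, limma adjusted p = 0.0094), though not with size factors (-0.19, limma adjusted p = 0.14). Ccne1 divided by Ccne2 was 2.77 and 1.98 untreated, 12.4 and 6.79 with LPS, 2.11 and 1.73 with anti-CD36, and 10.2 and 6.23 with both.

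LPS was also given to cells that had the antibody. The difference between those groups comes from other libraries than the first comparison's, but the spread behind the calls is estimated over all 8 libraries in both. Comparing the combination with anti-CD36 alone, 41 of 48 members were called lower and 0 higher (limma, Benjamini-Hochberg), where 31.7% of all tested genes were called lower and 15.4% higher. An unadjusted p under 0.05 was reached by 44 members and 54.7% of all genes. The median was -0.97, against -0.15 over all genes. The combination libraries lay below the anti-CD36 libraries in 47 of 48 members, and in 45.5% of all tested genes, with Ccne1 overlapping. Size factors moved the share of rises among the calls of all genes from 32.6% to 50.6%, and the members' median to -0.80. Of the members called in either comparison, 40 were called in both, which is 90.9% of the 44 and 97.6% of the 41. Over all tested genes these shares were 73.3% and 86.6%. The largest differences were in Mcm7 (-1.76 ± 0.11, limma adjusted p = 2.4e-05), Ccne2 (-1.70 ± 0.26) and Mcm10 (-1.57 ± 0.12). Across the 48 genes the difference with antibody and the difference without it had a Pearson's r of 0.77, and across all tested genes 0.93, with depth and scaling shared by the genes of a library. Not called here were Orc1 (-0.14), Rfc4 (-0.66), Rpa3 (-0.74), Tk1 (-0.95), Fen1 (-0.47), Pold2 (-0.28) and Ccne1 (0.02).

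**Figure D3:**
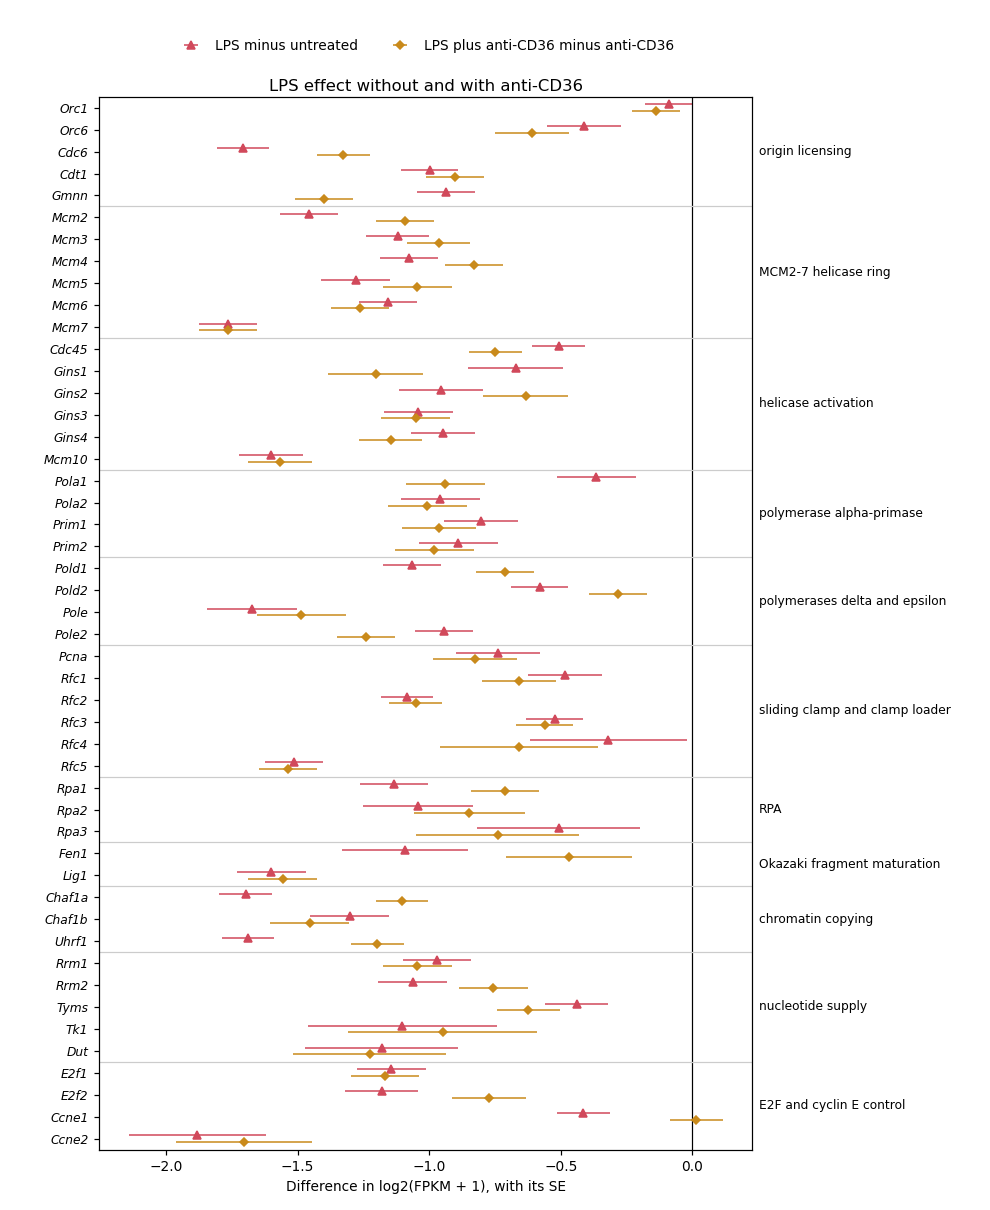
Difference in log2(FPKM + 1) with its SE for each of the 48 genes, LPS minus untreated (triangles) and LPS plus anti-CD36 minus anti-CD36 (diamonds), by role. Nearly all points lie left of 0, with Mcm7 at -1.77 and -1.76, while Orc1 lies close to 0 in both and Ccne1 at -0.41 and 0.02.

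With anti-CD36 alone few replication genes were called, against 13.7% of all tested genes called either way. Gmnn and Tyms rose and Chaf1a and E2f2 fell, so that 2 of 48 were called higher and 2 lower (limma, Benjamini-Hochberg), where 3.04% of all tested genes were called higher and 10.6% lower. At an unadjusted p under 0.05 there were 12, against 31.2% of all genes. The median was 0.07, and -0.08 over all genes. Gmnn was the clearest, at 34.3 and 32.6 FPKM untreated and 54.4 and 56.9 with anti-CD36 (0.72 ± 0.11, limma adjusted p = 0.015). Tyms rose from 9.09 and 8.07 to 11.8 and 14.0 (0.54 ± 0.12, limma adjusted p = 0.028). Chaf1a fell by 0.46 ± 0.10 (limma adjusted p = 0.028) and E2f2 by 0.55 ± 0.14 (limma adjusted p = 0.04), with the values given above. In each of these 4 genes the anti-CD36 libraries do not overlap the untreated ones, but the calls rest on the same libraries, so this adds no support. Of the 48, 15 had both anti-CD36 libraries above both untreated ones, where 16.7% of all tested genes did. In 12 members both lay below, and the share of all genes lying below was not counted. Because Gmnn rose while its target Cdt1 did not (-0.16, limma adjusted p = 0.39), Cdt1 divided by Gmnn was 0.771 and 0.762 with anti-CD36, against 1.43 and 1.42 untreated, 1.42 and 1.33 with LPS, and 1.20 and 0.988 with both.

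The calls depended on which libraries entered the model. With the untreated and anti-CD36 libraries alone none was made (limma adjusted p = 0.17 for Gmnn to 0.21 for E2f2), and none without either untreated library. In these 3 fits 0 of all 10289 tested genes were called, so they say nothing of the members. Without LPS replicate 1 or 2, or combination replicate 1 or 2, only Gmnn was called. In those fits fewer of all tested genes were called too, so the lost calls are not particular to the members. Without anti-CD36 replicate 1 the counts were 12 higher and 5 lower, where 14.5% and 21.8% of all genes were called. Without replicate 2 they were 7 and 6, where 7.64% and 19.8% of all genes were, with Tk1 called in opposite directions (0.66 and -0.59). With size factors 6 were called higher (Gmnn, Tyms, Orc6, Cdc45, Gins1 and Pola1) and 0 lower, where 4.19% and 5.71% of all genes were called, while over all genes the share of rises among calls went from 22.3% to 42.3%, and to 52.6% with a length trend removed.

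**Figure D4:**
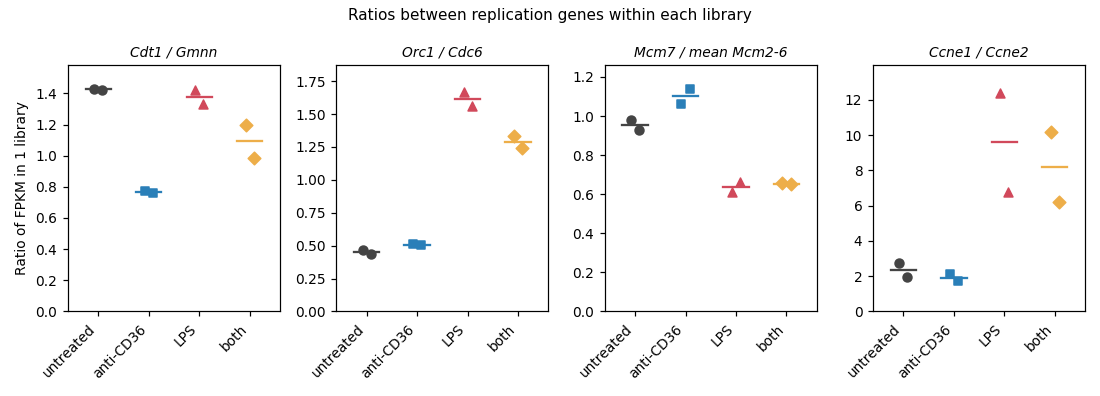
FPKM ratios within each library (y axis, linear from 0) for 4 pairs of replication genes, with 2 points per group and a line at their mean. Cdt1 over Gmnn is lowest with anti-CD36 alone (0.771 and 0.762), whereas the other 3 ratios separate the libraries with LPS from those without.

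The 2 anti-CD36 libraries differed from each other in these genes. The SD of the replicate difference over the 48 was 0.39 on the log2 scale with anti-CD36, against 0.19 untreated, 0.13 with LPS and 0.14 with both, and over all tested genes it was 0.45, 0.22, 0.14 and 0.19. In 6 members the anti-CD36 replicates were at least 0.5 apart, each higher in replicate 2: Tk1 (1.25), Rfc4 (1.03), Rpa3 (1.02), Dut (0.92), Fen1 (0.78) and Rpa2 (0.67). At the other end was Pole (-0.49), the longest of the 48 genes at 11160 exonic bases. The difference followed gene length with a Spearman's rho of -0.47 over the 48 genes and -0.33 over the 10034 tested genes with a length, and the untreated replicates did so in the other direction (0.40 and 0.48). The anti-CD36 effect itself had a rho of -0.28 with length over the members and -0.44 over all genes, and the LPS effect -0.39 and -0.16. With the length trend removed from each library, Gmnn (0.57, limma adjusted p = 0.045) and Tyms (0.71, limma adjusted p = 0.022) kept their calls and Chaf1a (-0.22, limma adjusted p = 0.25) and E2f2 (-0.43, limma adjusted p = 0.077) did not.

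**Figure D5:**
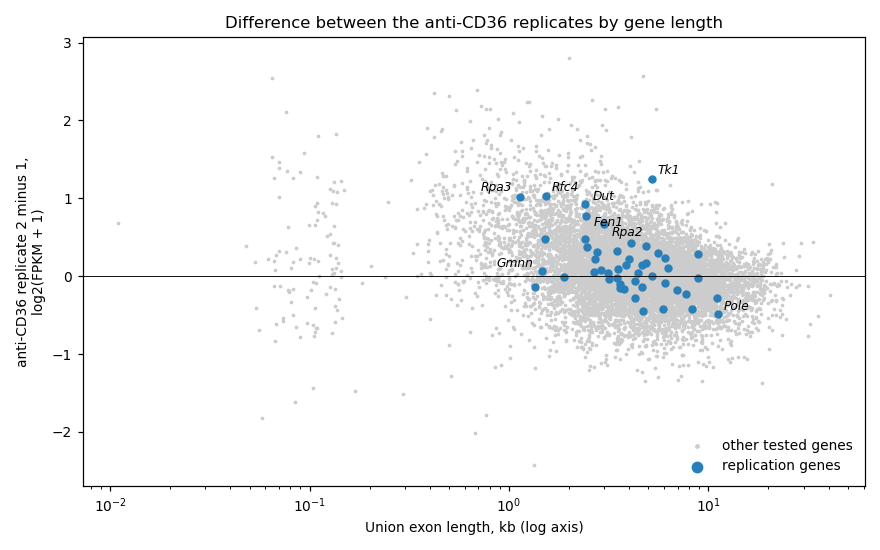
Anti-CD36 replicate 2 minus replicate 1 in log2(FPKM + 1) (y axis) against exonic length in kilobases (log x axis) for the 48 replication genes (blue) and the other tested genes with a length (grey). Tk1, Rfc4, Rpa3 and Dut lie highest among the 48, from 0.92 to 1.25, and Pole lowest at -0.49.

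Adding the antibody to LPS gave no called change in the 48 genes. In the combination against LPS, 0 were called (limma, Benjamini-Hochberg), where 1.78% of all tested genes were, and 6 had an unadjusted p under 0.05, against 19.5% of all genes. These 6 were Ccne1 (0.39, limma adjusted p = 0.096), Tyms (0.35), Rfc3 (0.30), Pold2 (0.29), Cdc6 (0.28) and Gmnn (0.26), all higher in the combination. The differences were small, from -0.16 (Pole) to 0.40 (Ccne2). They were above 0 in 39 of 48 members, and in 4810 of the 10289 tested genes. Both combination libraries lay above both LPS libraries in 26 members and below in 2, where 28.5% of all tested genes lay above. The share of all tested genes lying below was not counted. The median was 0.11, against -0.02 over all genes, and 0.16 against 0.03 with size factors. When these 4 libraries were fitted alone, 5 were called higher: Ccne1, Tyms, Rfc3, Rpa2 and Pold2, where 8.07% of all genes were called higher and 14.4% lower. Quantile normalization moved the share of rises among calls of all genes from 20.2% to 32.9%.

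The interaction, or how far the difference made by LPS depended on the antibody, was called in 0 of 48 (limma, Benjamini-Hochberg), and in 0.00972% of all tested genes, which is 1 gene. At an unadjusted p under 0.05 there were 7 members, against 13.6% of all genes. Chaf1a (0.59), Uhrf1 (0.49), Ccne1 (0.43), Cdc6 (0.38) and Mcm2 (0.36) had a smaller fall with the antibody, and Pola1 (-0.57) and Gmnn (-0.46) a larger one, at limma adjusted p of 0.26 to 0.36. So the differences between the LPS effects of Ccne1 with and without antibody, and of Pola1, were not shown by the test. Without anti-CD36 replicate 1, Rfc4 (-0.86) and Chaf1a (0.61) were called, where 5.98% of all genes were, and without replicate 2 Fen1 (1.01), where 2.3% were.

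Other genes of replication, in 5 lists, are read against the 37.5% of all tested genes called lower with LPS and the 17% called higher. Of 29 other tested fork and origin genes, 16 fell with LPS and 3 rose, with a median of -0.62, the helicase Recql4 at -1.55, the loader subunit Chtf18 at -1.51 and the firing factor Ticrr at -1.36. The 3 that rose were Polk, a translesion polymerase (1.36), and the origin recognition subunits Orc4 (1.02) and Orc3 (0.41). Of 34 other genes of nucleotide synthesis, 15 fell and 4 rose (median -0.35), shares near those of all tested genes, with Adssl1 at -2.04, Cad, which starts pyrimidine synthesis, at -1.45, and the purine enzyme Pfas at -1.39. Those that rose were Nme1 (0.99), Mthfd2 (0.65), Rrm2b (0.60), the p53-inducible small subunit of ribonucleotide reductase, and Gmps (0.34). Of 18 fork protection and checkpoint genes, 12 fell and 0 rose (median -0.59), led by the kinase Wee1 (-2.11), the nuclease Exo1 (-1.75) and Clspn (-1.62).

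Of 13 genes of replication-coupled chromatin, 10 fell and 2 rose with LPS (median -0.75), with the maintenance methyltransferase Dnmt1 at -1.84, the histone chaperone Asf1b at -1.76 and Tonsl at -1.44, while Asf1a and Hat1 both rose by 0.48. Of 26 other G1/S regulators, 21 fell and 2 rose (median -0.81). The repressor E2f8 changed by -2.17, cyclin A2 (Ccna2) by -1.91 and the APC/C inhibitor Fbxo5 by -1.74, while the CDK inhibitor Cdkn1a (0.90) and E2f5 (0.85) rose. With anti-CD36 alone these 5 lists had 3 higher and 2 lower of 29, 0 and 2 of 34, 2 and 0 of 18, 1 and 0 of 13, and 1 and 5 of 26, where 3.04% of all tested genes were called higher and 10.6% lower. Among them Cad (-0.92) and Pfas (-0.76) fell, and Chek1 (0.60), Top2a (0.60) and Hat1 (0.62) rose. In the combination against LPS the 5 lists had 0 called genes, where 1.78% of all tested genes were called (limma). Across these lists of 29, 34, 18, 13 and 26 genes, 12 had an unadjusted p under 0.05, where 19.5% of all tested genes did. Genes that rose, and those named for anti-CD36, were picked after their values were seen.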

How the data were processed

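The authors deposited 1 table of FPKM values for 10639 genes and 8 libraries. Alignment was with HISAT2 2.0.5, and mm10 and hg38 were named as builds, per the submitters' processing notes. The counter, annotation, strand use and role of hg38 are not given in the sources used here. No value was 0. Columns were tied to samples by name, and none was left unused. The members, lists and tests were chosen with earlier results of these data known.

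Values were taken as log2(FPKM + 1), which understates changes of low genes, for the 10289 genes that reached 1 FPKM in 2 or more libraries. A model of 4 group means over all 8 libraries was fitted with limma 3.58.1 in R 4.3.3 (empirical Bayes with a trend, 4 residual and 3.46 prior degrees of freedom). Calls are at a Benjamini-Hochberg adjusted p under 0.05 over all genes tested. The fit was tested on simulated data. Fold changes are ratios of mean FPKM.

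Depth is the smallest number of reads at which short genes with 1 exon (under 400 bp) gave whole reads within 0.02. It did so in 99.1% to 100% of them, using GENCODE M21 lengths (GRCm38, the assembly of mm10). At these depths 3 reads in 2000 bp equal 0.0209 to 0.0313 FPKM. The main model did not pair the libraries by replicate number, and the labels do not say whether equal numbers belong together.

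For each role the 2 members with the largest LPS difference are given in every library, and so are the members with the highest and lowest mean and up to 3 called members of each other comparison. Of each other list up to 3 genes with the largest LPS difference are named. Orc1, Pola1, Rfc4, Rpa3 and Ccne1 were added after their values were seen.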

Additional observations from a re-analysis of the deposited data

How the results depend on the processing

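Settings varied were the pseudocount (0.1 and 5), the filter (none, or a mean of 5 FPKM or more), quantile normalization, size factors, no trend, only the groups compared, a replicate block, each library left out and, added after seeing the data, mitochondrial genes left out with rescaling and the length trend removed. The members called lower with LPS numbered 37 to 47 over the settings that keep all libraries, against 44. The share of all genes called lower there was 26.4% (size factors) to 48.1% (mitochondrial genes left out). Those of the combination against anti-CD36 numbered 39 to 46, against 41. There 21.5% (only the groups compared) to 41.7% (mitochondrial genes left out) of all genes were called lower. With 1 library left out the members' median was -1.08 to -0.96 with LPS, against -0.22 to -0.17 over all genes. For the combination against anti-CD36 it was -1.08 to -0.92, against -0.18 to -0.11. Where 1 library is left out, the lone one is assumed to vary like the other groups.

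For anti-CD36 against untreated, the 2 higher became 5 with quantile normalization, 6 with size factors and 0 on only the groups compared. Of all genes 4.52%, 4.19% and 0% were called higher there, against 3.04%. The 2 lower became 1, 0 and 0, where 6.21%, 5.71% and 0% of all genes were called lower, against 10.6%. The lower ones became 1 with the replicate block (6.8% of all genes) and 0 with the length trend removed (3.6%). With 1 library left out the counts ran from 0 to 12 higher and 0 to 6 lower. For the combination against LPS, 0 higher became 5 on only the groups compared, where 8.07% of all genes were called higher, against 0.36%. Leaving out 1 library changed that count too, as it changed the share of all genes called. For the interaction, the calls made with 1 library left out are given above with the share of all genes. Other counts stayed within 1.5 times.

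Orc1 turned from -0.09 to 0.131 with quantile normalization, 0.119 with size factors and 0.084 without the length trend in the LPS comparison, and from -0.14 to 0.013 and 0.028 with the first 2 in the combination against anti-CD36. There Ccne1 turned from 0.015 to -0.187 without mitochondrial genes, and leaving out 1 library, it ran from -0.014 (without anti-CD36 replicate 1) to 0.044 (without anti-CD36 replicate 2). The cause was not tested. The same-numbered replicates' deviations correlated at -0.65 to 0.53 between groups. The labels do not say whether equal numbers share a culture or batch. These correlations cannot decide it, because the deviations also follow gene length. With the replicate block 44 members were still called lower with LPS, and Tk1 lost its call and Pola1 gained one.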
